A study of Rattus norvegicus with 4 samples.

Results

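Mast cells were picked out of 4 droplet-based single-cell RNA libraries of rat skin wounds, each taken on day 4. In 2 libraries, injected 1 and injected 2, the wound had received purified migrasomes, vesicles that migrating cells leave behind. In the other two, uninjected 1 and uninjected 2, nothing was injected, so an injection as such and its migrasomes cannot be told apart. A barcode counted as a mast cell when it had at least 3 UMIs (unique molecular identifiers, each marking 1 captured RNA molecule) of Cpa3, Cma1, Tpsab1 and Ms4a2 together, from at least 2 of these genes. It also had under 0.5% of its UMIs in Krt5 and Krt14 and under 1% in Col1a1, Col3a1 and Dcn. Of 36892 barcodes with at least 500 UMIs, at least 250 genes and at most 20% mitochondrial UMIs, 185 met this rule. There were 51 mast cells in injected 1 and 51 in injected 2, against 50 in uninjected 1 and 33 in uninjected 2. The skin was dissociated with enzymes before capture, and the labels give no strain, sex or age of the rats. They do not say that each library is a rat of its own, so a p-value speaks of library spread alone, and that spread can be technical.

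Mast cells are long-lived tissue cells that mature in the skin under Kit, the receptor of stem cell factor, and depend on the transcription factors Gata2 and Mitf. They fill their granules with histamine, with proteases and with heparin carried on serglycin. They release them when antigen crosslinks IgE on the receptor FcεRI, or when peptides bind receptors of the Mrgpr family. Rodent mast cells of connective tissue are known for carboxypeptidase A3 (Cpa3, ENSRNOG00000011181), the chymase Cma1 (ENSRNOG00000020563), and 2 tryptases, Tpsab1 (ENSRNOG00000024181) and Tpsb2 (ENSRNOG00000018611). Tryptases are trypsin-like proteases stored bound to heparin.

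The bases upstream of 5 granule protease genes are shown because the first 3 genes were found in every mast cell and the 2 tryptases were not. Each run holds the 250 bases before the annotated start, read in the direction of transcription, from RefSeq on build GRCr8. Capitals mark the motif AGATAA or TGATAA, a form of the site bound by GATA factors such as Gata2, searched on both strands.
Cpa3, chr2:104673238-104673487, minus strand: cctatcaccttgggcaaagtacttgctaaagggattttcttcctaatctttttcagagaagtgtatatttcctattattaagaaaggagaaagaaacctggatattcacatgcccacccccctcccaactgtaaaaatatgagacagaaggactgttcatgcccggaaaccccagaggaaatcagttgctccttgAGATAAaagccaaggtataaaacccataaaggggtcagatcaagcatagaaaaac
Cma1, chr15:33390134-33390383, minus strand: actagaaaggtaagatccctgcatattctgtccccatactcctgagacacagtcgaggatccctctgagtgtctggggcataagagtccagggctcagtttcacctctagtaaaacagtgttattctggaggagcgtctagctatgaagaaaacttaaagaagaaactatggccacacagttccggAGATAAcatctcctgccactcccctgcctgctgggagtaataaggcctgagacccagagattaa
Mcpt1l1, chr15:33876896-33877145, minus strand: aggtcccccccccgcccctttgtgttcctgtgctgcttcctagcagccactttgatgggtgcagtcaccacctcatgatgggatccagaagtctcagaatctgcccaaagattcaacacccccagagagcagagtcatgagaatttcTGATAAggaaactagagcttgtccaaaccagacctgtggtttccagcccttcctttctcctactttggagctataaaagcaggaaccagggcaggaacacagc
Tpsab1, chr10:14867303-14867552, minus strand: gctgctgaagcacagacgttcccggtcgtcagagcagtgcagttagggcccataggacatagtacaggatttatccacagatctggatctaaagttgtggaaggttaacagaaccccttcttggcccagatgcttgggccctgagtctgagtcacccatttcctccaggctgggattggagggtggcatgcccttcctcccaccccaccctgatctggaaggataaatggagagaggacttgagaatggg
Tpsb2, chr10:14886060-14886309, plus strand: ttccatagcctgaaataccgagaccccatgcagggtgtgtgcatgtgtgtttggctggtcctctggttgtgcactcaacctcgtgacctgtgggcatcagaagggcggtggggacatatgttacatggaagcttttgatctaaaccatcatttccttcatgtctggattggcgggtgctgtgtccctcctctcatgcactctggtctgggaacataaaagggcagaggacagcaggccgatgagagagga
The motif was present once upstream of each of Cpa3, Cma1 and Mcpt1l1, beginning 55, 64 and 103 bases before the start, and was in neither tryptase run. The 5 genes were picked for their detection, and 3 of them, Cpa3, Cma1 and Tpsab1, are genes of the rule. Of 14 mast cell markers with a promoter in the table, Mcpt1l1 included, 7 held the motif, as did 16.9% of 33469 RefSeq promoters. A match describes letters only. The 2 tryptase genes lie next to each other on chromosome 10, with 0 protein-coding genes between them in the RefSeq annotation. Their products and those of the Mcpt1-like genes are similar, so the split of reads among such genes is uncertain.

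The 4 genes chose the cells, so their values are given only to show where the limit fell. The lowest summed UMI count of the 4 genes in a mast cell was 12 and 6 in the injected libraries, against 11 and 33 in the uninjected libraries, with medians of 145 and 106, against 56 and 102. Outside the rule, 1 and 2 barcodes of the injected libraries had 3 or more of these UMIs, against 0 and 2, and 1 of injected 2 and 2 of uninjected 2 missed the rule through the keratin or collagen limits. All 185 mast cells had UMIs of both Cpa3 and Cma1. The same 185 were found when Tpsab1 was left out of the rule, so Tpsab1 did not decide membership. No mast cell barcode was shared between libraries, which had 15 to 38 passing barcodes in common per pair.

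Mast cell markers outside the rule were far higher in these cells than in other barcodes. In mast cells, UMIs of the 11 listed mast cell markers not used by the rule came to 11907 and 6552 CPM (UMIs of a gene or list divided by all UMIs of the same cells of a library, times 1000000) in the injected libraries. They came to 3187 and 3292 CPM in the uninjected libraries, and to at most 83.7 CPM in all other barcodes of any library. Tpsb2 alone gave 7113 and 2822 CPM of these sums in injected mast cells, against 530 and 469 CPM in uninjected ones. Markers of eosinophils, melanocytes and skeletal muscle were at 0 in all 4 libraries. Macrophage markers were not absent: their 8 genes summed to 144 and 35.6 CPM in injected mast cells, against 48.1 and 26.1 CPM in uninjected ones. Other barcodes had 92.0 and 101 CPM, against 20.9 and 60.9 CPM, so mast cells were above them in injected 1 and uninjected 1. C1qa and Cd163 were at 0 in all 4 libraries, but C1qb was detected in mast cells of injected 1 and C1qc in those of uninjected 1. The 7 T and NK cell markers summed to 38.7 and 53.4 CPM in injected mast cells, against 67.4 and 34.8 CPM, with Cd3d, Cd3e and Cd3g at 0. Other barcodes had 77.2 and 44.2 CPM, against 15.1 and 48.2 CPM. Of 2 basophil markers, the protease Prss34 was at 0 and the cytokine Il4 was detected in mast cells of every library, at 88.4 and 23.7 CPM, against 19.3 and 8.69 CPM, and at most 0.0712 CPM in other barcodes. What part other cells had in the results was not tested. Keratinocyte markers summed to 475 and 2028 CPM, against 1435 and 2510 CPM, where other barcodes of the 4 libraries had 19762 to 27515 CPM. Neutrophil markers summed to 11.1 and 5.93 CPM in mast cells of the injected libraries, against 366 and 182 CPM in those of the uninjected libraries. Free RNA accounted for at most 1.96% and 5.36% of mast cell UMIs in the injected libraries, against 8.15% and 8.22%, as bounded from 13 keratinocyte and neutrophil genes.

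Mast cells had fewer UMIs than other barcodes. Their medians were 2751 and 2281 UMIs in the injected libraries, against 1641.5 and 2827 UMIs, and other barcodes had 3814.5 and 8013, against 2256 and 5354.5. Uninjected 1 stood apart: ribosomal protein genes took 4.53% and 6.42% of mast cell UMIs in the injected libraries, against 12.5% in uninjected 1 and 7.11% in uninjected 2. Other barcodes showed the same order between these libraries, with 7.16% and 8.59%, against 17.1% and 8.62%.

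Genes that mast cells carried at the highest ratio over other barcodes were granule, amine and receptor genes. These ratios describe the cells picked by the rule and were not tested. Among genes with at least 100 CPM in mast cells of every library, the 15 with the largest smallest-over-libraries log2 ratio were Mcpt1l1, Cpa3, Cma1, Tph1, Tpsab1, Ms4a2, RGD1564571, Syngr1, Tpsb2, Milr1, Cd72, Gata2, Hdc, Hpgds and Lat. Mcpt1l1, a chymase-like protease by its symbol, had 57226 and 59278 CPM in injected mast cells, against 34662 and 40356 CPM in uninjected ones, and 0.87 to 12.7 CPM in other barcodes. It was detected in all 185 mast cells. Tph1, tryptophan hydroxylase of serotonin synthesis, had 1370 and 1500 CPM in injected mast cells, against 1155 and 1190 CPM, with at most 2.38 CPM elsewhere. Milr1, an inhibitory receptor named for mast cells, had 873 and 1500 CPM, against 587 and 669 CPM. Syngr1, a vesicle membrane protein best known from synapses, had 663 and 1109 CPM, against 655 and 643 CPM. Resp18, a protein of endocrine secretory granules that ranked next and was named after its values were seen, had 232 and 332 CPM in injected mast cells, against 462 and 695 CPM in uninjected ones, and at most 0.571 CPM elsewhere. Ccl2, a chemokine that draws monocytes, was not confined to mast cells. It had 35986 and 17694 CPM in injected mast cells, against 22713 and 13316 CPM in uninjected ones, and 3773 to 5750 CPM in other barcodes.

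**Figure D1:**
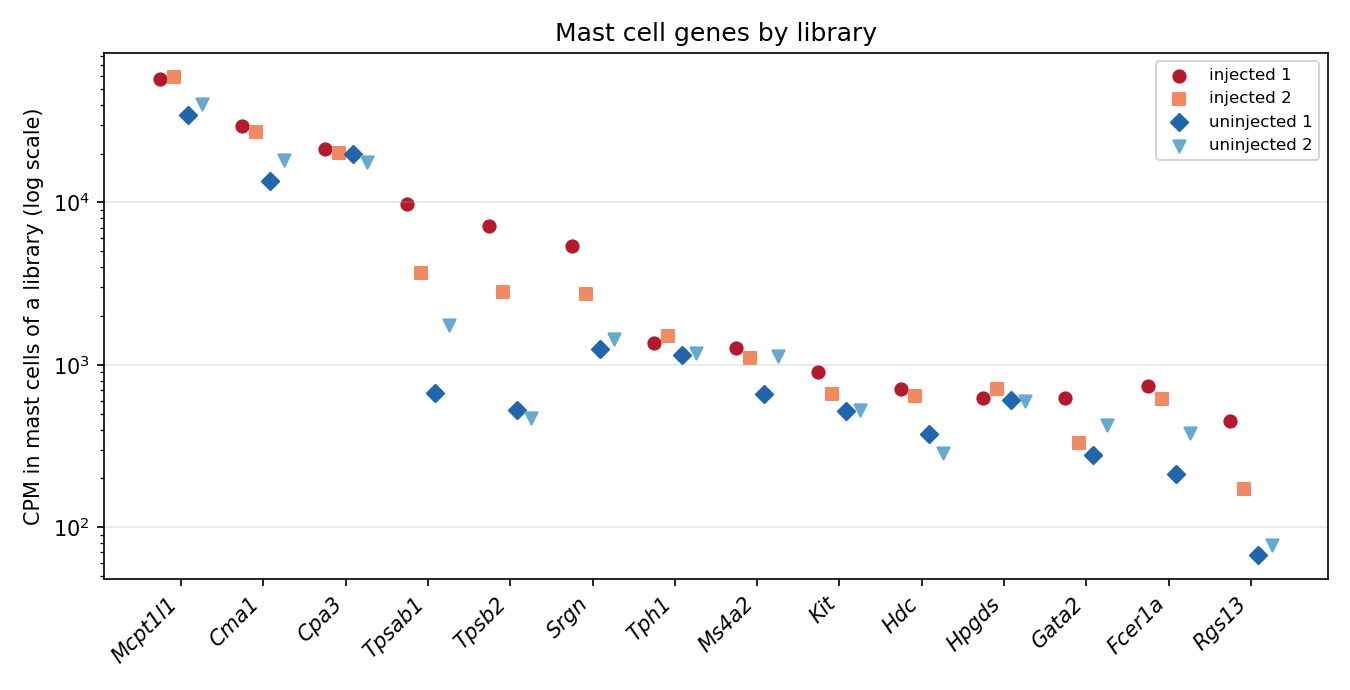
CPM of 14 mast cell genes, on a log scale, in the summed mast cells of each library; red and orange points are the 2 injected libraries and dark and light blue points the 2 uninjected ones. Cpa3 lay between 17729 and 21373 CPM in all 4, while Tpsab1 had 9819 and 3664 CPM in the injected libraries, against 674 and 1755 CPM in the uninjected ones. The top cell held 332 of 1778 and 311 of 618 of these Tpsab1 UMIs, against 25 of 70 and 133 of 202.

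Mast cells were a small part of every library, and their share did not differ beyond the spread between libraries. They made up 0.470% (95% Wilson interval 0.357 to 0.617%) of barcodes in injected 1 and 0.775% (0.590 to 1.02%) in injected 2. They made up 0.504% (0.383 to 0.664%) in uninjected 1 and 0.346% (0.247 to 0.485%) in uninjected 2. The means were 0.623 ± 0.216% in injected and 0.425 ± 0.112% in uninjected libraries (SD, n = 2 each), a difference of 0.197 percentage points (exact two-sided permutation p = 0.667). The groups overlapped, and with 2 libraries against 2 this test cannot give a p below 0.3333. With a stricter rule, at least 5 UMIs of the 4 genes with 3 or more of them detected, they did not overlap, at 0.460% and 0.730% in injected, against 0.323% and 0.325% in uninjected libraries (exact two-sided permutation p = 0.3333). Every mast cell had Cpa3 and Cma1, so the stricter rule asks for Tpsab1 or Ms4a2 as well. Ms4a2 was detected in 92.2% and 86.3% of injected mast cells, against 60.0% and 93.9% of uninjected ones. The stricter share therefore depends on the detection of these 2 genes. Intervals cover counting error only.

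Tryptase divided the mast cells of each library. The range of Tpsab1 was 0 to 332 UMIs in a mast cell of injected 1 and 0 to 311 in injected 2, against 0 to 25 in uninjected 1 and 0 to 133 in uninjected 2. Its median was 17 UMIs in injected 1 and 0 in each of the other 3 libraries. At least 1 UMI was found in 41 of 51 cells (80.4%, 95% Wilson interval 67.5 to 89.0%) and 21 of 51 (41.2%, 28.8 to 54.8%) of the injected libraries. The uninjected libraries had 8 of 50 (16.0%, 8.34 to 28.5%) and 5 of 33 (15.2%, 6.65 to 30.9%). Other barcodes of the 4 libraries had a Tpsab1 UMI in 0.167%, 0.107%, 0.071% and 0.042% of cases, at median depths above those of mast cells in 4 of 4 libraries, and barcodes with C1q genes of macrophages in 0%. Those C1q barcodes numbered only 51 and 30 in the injected libraries, against 8 and 25. The 2 injected libraries were both above both uninjected ones, and they differed from each other by more than either uninjected library differed from the other.

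The order held at equal depth. After thinning each cell to 1000 UMIs, which left out 5, 6, 7 and 0 mast cells in the order injected 1, injected 2, uninjected 1 and uninjected 2, Tpsab1 was detected in 73.9% and 37.8% of injected mast cells. It was detected in 11.6% and 12.1% of uninjected ones. Tpsb2, which the rule did not use, was detected in 80.4% and 35.6%, against 4.65% and 12.1%. The exact two-sided permutation p of the Tpsab1 share was 0.3333, the smallest that 2 libraries against 2 allow, so the difference cannot pass a threshold of 0.05 in this design. With 3 or more UMIs called positive, a range of a count rather than a cell type, 34 and 13 cells were positive in the injected libraries, against 6 and 5. There were 10 and 30 cells at 0 UMIs, against 42 and 28, and 7 and 8 cells of the injected libraries lay between at 1 or 2 UMIs, against 2 and 0 of the uninjected ones. Without injected 1 the difference in the share of positive cells was 11.9 percentage points, against 32.5 with it.

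**Figure D2:**
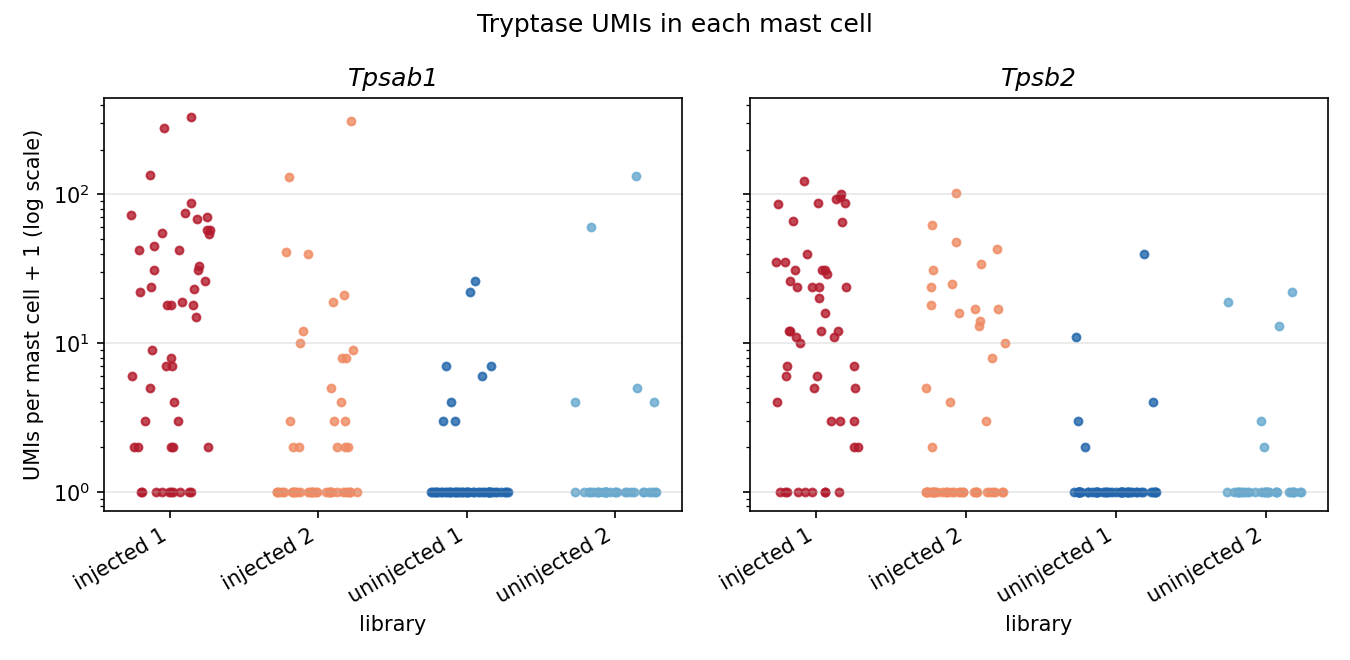
UMIs of Tpsab1 (left) and Tpsb2 (right) in each of the 185 mast cells, plus 1 and on a log scale, by library; each point is 1 cell. Most points of the uninjected libraries lie at 0 UMIs, with 42 of 50 and 28 of 33 cells there for Tpsab1, while 10 of 51 and 30 of 51 cells of the injected libraries do.

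**Figure D3:**
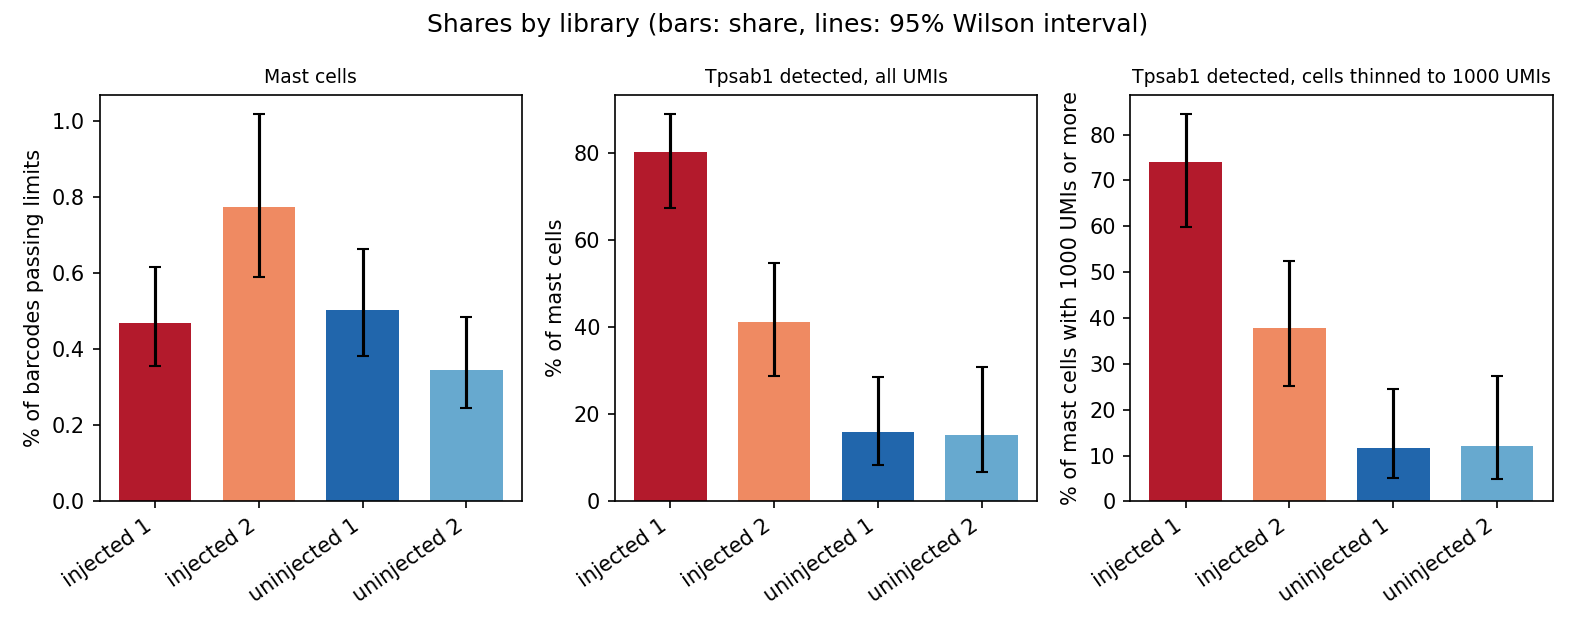
Left, mast cells as a percentage of barcodes passing the limits; middle and right, percentage of mast cells with a Tpsab1 UMI before and after thinning to 1000 UMIs. Bars are shares by library and lines 95% Wilson intervals. The Tpsab1 share was 80.4% and 41.2% in the injected libraries, against 16.0% and 15.2%, while the shares of mast cells overlapped between the groups.

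The 2 tryptases went together in single cells. Tpsb2 was detected in 31 of 34 and 13 of 13 Tpsab1-positive cells of the injected libraries, and in 4 of 6 and 5 of 5 of the uninjected ones. In cells with 0 Tpsab1 UMIs it was detected in 5 of 10 and 0 of 30 of the injected libraries, and in 0 of 42 and 0 of 28 of the uninjected ones. This is a description across cells of shared libraries. Positive cells had more UMIs than negative ones in 3 of 4 libraries, with medians of 3317 against 2001 in injected 1, 3289 against 2170 in injected 2 and 3391 against 2664 in uninjected 2. In uninjected 1 the medians were 1224 and 1642.

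Other genes differed between the tryptase states in the same direction in all 4 libraries. The states were defined after their values were seen and one rests on 5 or 6 cells in the uninjected libraries, so these are descriptions with no test. On the log2(CPM + 50) scale, which understates differences of low genes, 10 of 2251 genes were at least 1 unit higher in positive cells of all 4 libraries and 13 at least 1 unit lower. The 10 include Tpsab1, which defined the states. Besides Tpsb2 the higher genes were Pla2g7, Ctsd, Fcer1a, Ubash3b, Scpep1, Srgn, Itpr1 and Ints6. Counts were low in positive cells of uninjected 1, with 2 UMIs of Ubash3b and 3 each of Scpep1 and Itpr1. Fcer1a, the IgE-binding chain of FcεRI, had 832 and 1345 CPM in positive cells of the injected libraries, against 244 and 34.5 CPM in negative cells. In the uninjected libraries it had 539 and 1228 CPM in positive cells, against 117 and 173 CPM in negative ones. Srgn, the serglycin core that carries heparin in granules, had 6378 and 4595 CPM in positive cells of the injected libraries, against 1952 and 1207 CPM. In the uninjected libraries it had 2246 and 2762 CPM, against 1019 and 1127 CPM. Pla2g7, which degrades platelet-activating factor, differed by 2.54 and 4.62 log2 units in the injected libraries and by 2.42 and 3.29 in the uninjected ones. Ctsd, the lysosomal protease cathepsin D, differed by 2.06 and 1.61, and by 1.67 and 2.05.

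Genes lower in positive cells were Cd53, Ahrr, Dnase2b, Nsg2, Resp18, LOC685351, Glud1, Ifi27, RGD1564664, Fabp5, Gne, Tppp3 and Lgals1. Each had at most 2 UMIs in positive cells of uninjected 1, so the size of its difference there rests on few UMIs. Cd53, a tetraspanin of blood cells, had 14.5 and 30.2 CPM in positive cells of the injected libraries, against 279 and 356 CPM in negative cells. It had 0 UMIs in positive cells of the uninjected libraries, against 223 and 574 CPM in negative ones. Ahrr, the repressor of the aryl hydrocarbon receptor, differed by -3.31 and -2.21 log2 units in the injected libraries and by -2.67 and -3.43 in the uninjected ones. The granule protein gene Resp18 differed by -1.82 and -1.86, and by -2.10 and -1.68. Among genes outside these 23, the chemokine Ccl7 was lower in positive cells of every library. Its differences were -0.90 and -1.54 in the injected libraries and -4.71 and -1.46 in the uninjected ones. Kit was 0.22 to 1.65 log2 units higher in positive cells and Cpa3 0.41 to 1.50 units higher. Slc18a2, which loads amines into granules, differed by -0.32 to 0.12 units.

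**Figure D4:**
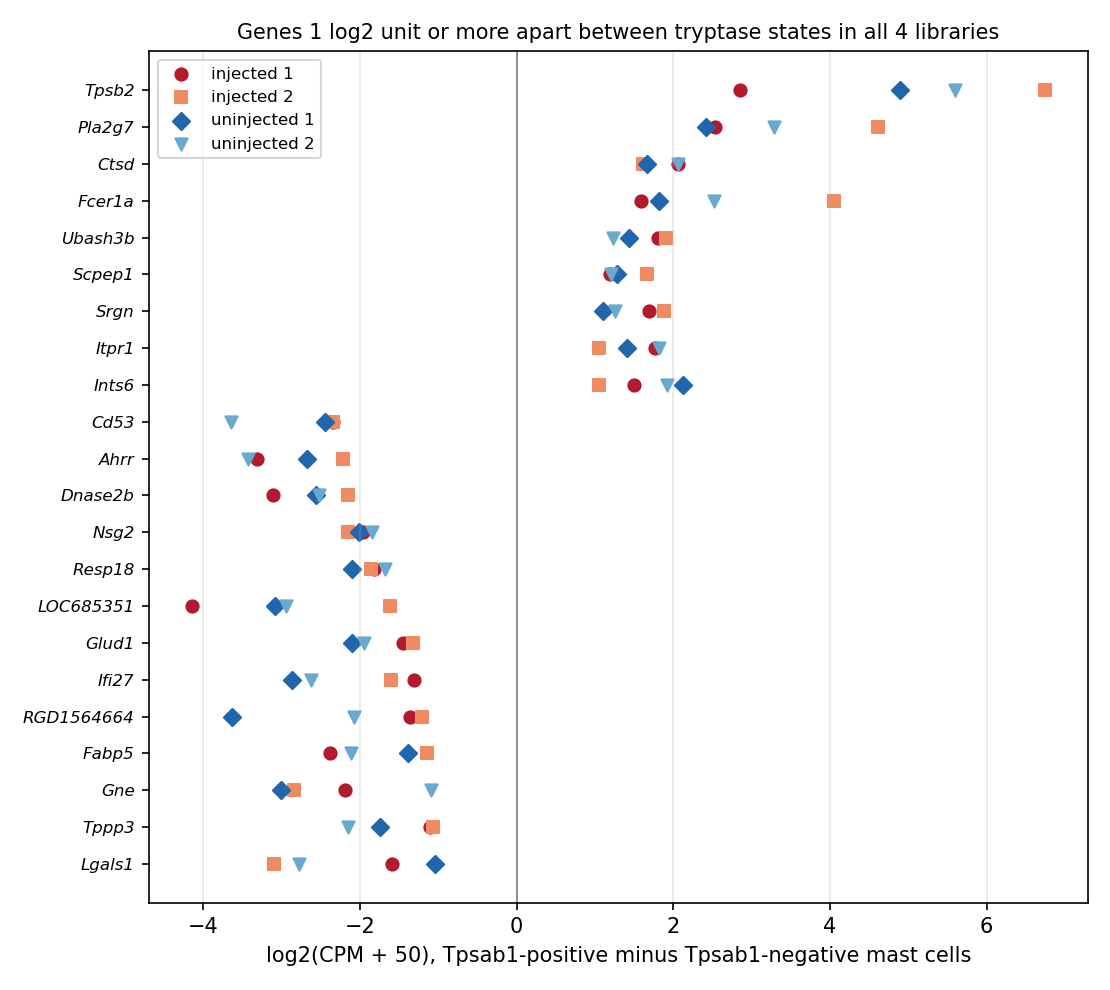
Difference in log2(CPM + 50) between Tpsab1-positive (3 or more UMIs) and Tpsab1-negative (0 UMIs) mast cells, for each gene at least 1 unit apart in all 4 libraries other than Tpsab1 itself; each point is 1 library. Tpsb2 was the gene farthest to the right in each library, with Fcer1a at 1.58 and 4.05 in the injected libraries and 1.82 and 2.52 in the uninjected ones.

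Across all mast cells, no gene passed the test between injected and uninjected libraries. UMIs were summed over the mast cells of each library and tested with edgeR's quasi-likelihood test, and a gene was called when its p, adjusted after Benjamini and Hochberg, lay under 0.05. Fold changes are injected over uninjected. Of 2251 genes tested, 0 were called (0.0%). DESeq2 called 1 gene, Tpsb2, of 12061 (0.00829%). At an unadjusted p under 0.05 edgeR gave 142 genes (6.31%), 68 of them higher. On simulated data of these libraries, 42.3% of genes changed by 2 log2 units were recovered and 99% of those changed by 4. Many genes were changed at once and only genes of higher CPM, so recovery of lower genes was not simulated. In the data, S100a9 at a log2 fold change of -5.61 was not called (edgeR adjusted p = 0.344). Both injected libraries were above both uninjected ones for 469 genes (20.8%) and below both for 306 (13.6%).

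The 2 tryptases were among the higher genes of smallest p. Tpsb2 had 7113 and 2822 CPM in injected mast cells, against 530 and 469 CPM in uninjected ones, without overlap. Its mean was 4968 ± 3034 CPM, against 499 ± 42.8 CPM (SD, n = 2 each). The log2 fold change was 3.26 (SE 0.67, edgeR adjusted p = 0.697). DESeq2 gave 3.31 with an adjusted p of 0.000702, and over 13 alternatives the adjusted p ranged up to 0.987. For Tpsab1 the log2 fold change was 2.49 (SE 0.70, edgeR adjusted p = 0.697). It came to 1.55 without injected 1 and 3.08 without uninjected 2. The cell with most Tpsab1 UMIs held 332 of 1778 and 311 of 618 in the injected libraries, against 25 of 70 and 133 of 202. For Tpsb2 the top cell held 123 of 1288 and 101 of 476, against 39 of 55 and 21 of 54. The chymase Cma1 had 29497 and 27306 CPM, against 13605 and 18224 CPM, with a log2 fold change of 0.79 (SE 0.37, edgeR adjusted p = 0.697). Cpa3 was even over the libraries, with 21373 and 20238 CPM, against 20008 and 17729 CPM.

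Other higher genes of smallest p, none of which passed, were Rcan1, Hacl1, Necap2, Tmprss4, Hs6st2, Hes1 and Samd4a, with log2 fold changes of 1.69 to 2.89. Rcan1, an inhibitor of calcineurin that calcium signalling induces, had 1386 and 872 CPM in injected mast cells, against 183 and 104 CPM. It was detected in 25 and 17 mast cells, against 11 and 5. The cell with most Rcan1 UMIs held 44 of 251 and 62 of 147, against 5 of 19 and 6 of 12. Tpsab1-positive cells of the injected libraries had 1323 and 1844 CPM of Rcan1, against 872 and 218 CPM in negative cells. For the uninjected libraries Rcan1 had 180 and 395 CPM in positive cells, against 199 and 32.5 CPM in negative ones. Its log2 fold change was 2.89 (SE 0.64, edgeR adjusted p = 0.697). Hs6st2, a sulfotransferase of heparan sulfate, had 105 and 136 CPM, against 28.9 and 26.1 CPM. Hes1, a target of Notch, had 331 and 255 CPM, against 86.7 and 86.9 CPM.

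The lower genes of smallest p were S100a9, AABR07034362.2, LOC100912564, Sbsn, Lgals7, Rab21, Uqcrb, Hist1h2bq, Socs1 and Gclc, with log2 fold changes of -5.61 to -1.63 and none passing. Several rested on few cells. S100a9, a neutrophil calcium-binding protein, had 1 and 0 UMIs in injected mast cells, against 19 and 19, of which 18 in uninjected 2 lay in 1 cell. The ratio of its UMI shares was 0.0165 (exact 95% interval 0.000407 to 0.0975). S100a9 had a free RNA bound of 100% of its UMIs, the largest over the libraries, which is loose at 1 or 0 UMIs. Without injected 1 it and AABR07034362.2 were called, at log2 fold changes of -7.55 and -4.12. Over 14 alternatives the edgeR or DESeq2 adjusted p ranged from 1.13e-06 to 0.987 for S100a9 and from 5.69e-08 to 0.987 for AABR07034362.2. Of 48 Lgals7 UMIs in uninjected 2, 45 lay in 1 cell, and Lgals7 encodes a galectin of stratified epithelium. For AABR07034362.2, Sbsn and LOC100912564 the top cell of uninjected 2 held 19 of 20, 9 of 10 and 25 of 28 UMIs. In uninjected 1 the top cell held 12 of 25, 15 of 21 and 3 of 15. The free RNA bound was 100% for AABR07034362.2, Sbsn and Lgals7, and 18.6% for LOC100912564. Socs1, an inhibitor of cytokine signalling, was spread more widely, with UMIs in 5 and 6 injected mast cells, against 10 and 11. It had 44.2 and 65.2 CPM, against 144 and 182 CPM. Rab21, an endosomal GTPase, had 82.8 and 83.0 CPM, against 231 and 417 CPM.

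**Figure D5:**
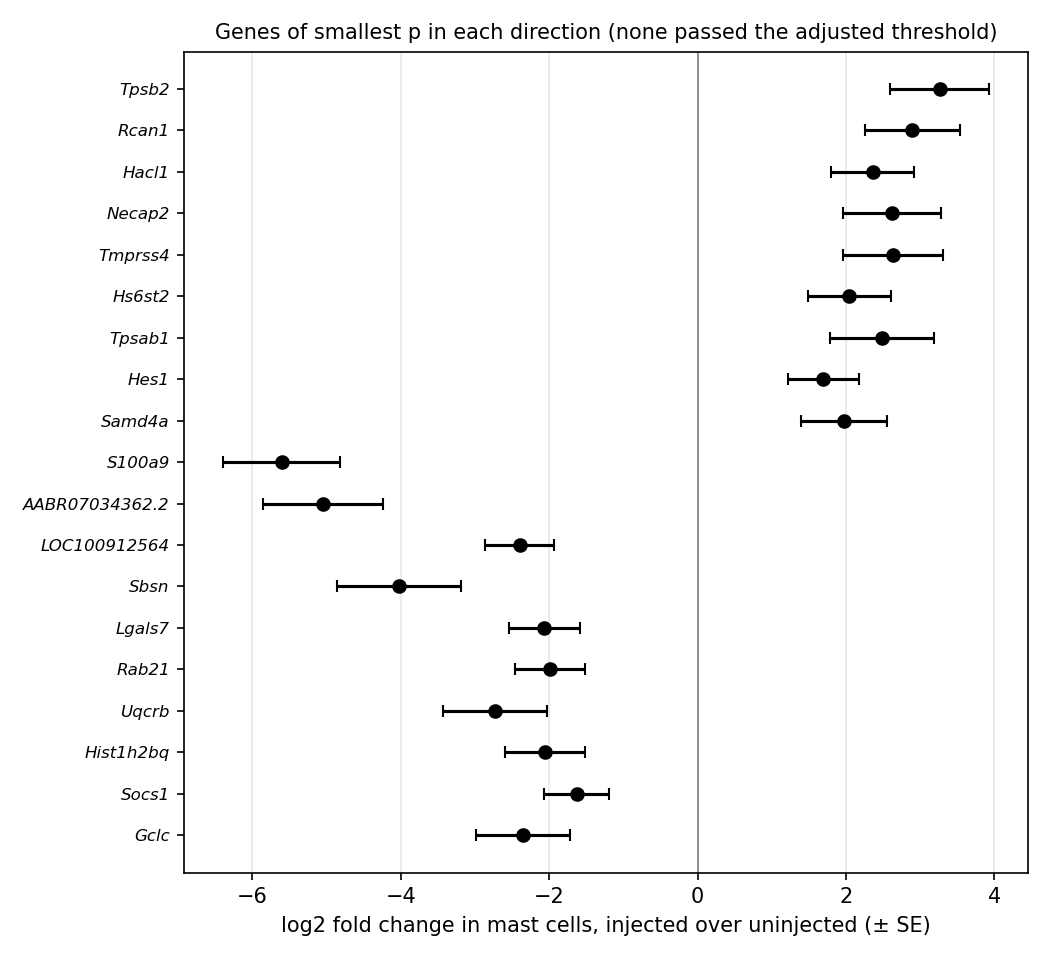
Log2 fold change, injected over uninjected, with its standard error in the summed mast cells, for 9 higher and 10 lower genes of smallest p. The higher genes lie between 1.69 and 3.26 and the lower ones between -5.61 and -1.63; none passed the adjusted threshold.

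No list of mast cell function had a called member, and the lists differed in direction. Of 9 tested granule proteases, 8 were higher, with a median log2 fold change of 0.58, where all tested genes had a median of 0.00 and 49.7% of them were higher. In 6 of the 9 both injected libraries exceeded both uninjected ones, as they did for 20.8% of all tested genes. Cpa3, Cma1 and Tpsab1, 3 of these 6, were also genes of the rule that chose the cells. Of 14 genes of IgE receptor signalling, 13 were higher (median 0.43), and 0 were called. Fcer1a had 740 and 617 CPM, against 212 and 382 CPM, with a log2 fold change of 1.16 (SE 0.52, edgeR adjusted p = 0.697). Ms4a2, its β chain, had 1265 and 1103 CPM, against 664 and 1138 CPM, and overlapped. Fcer1g, its signalling γ chain, had 723 and 783 CPM, against 1569 and 652 CPM. Rgs13, a brake on G protein signalling in mast cells, had 453 and 172 CPM, against 67.4 and 78.2 CPM. The kinase Lyn had 823 and 439 CPM, against 337 and 469 CPM.

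Values in mast cells with 0 Tpsab1 UMIs alone are a description, since that split uses a gene whose detection differed between the libraries and with which Fcer1a went in all 4. It leaves 10 and 30 cells in the injected libraries, against 42 and 28, and 5 of the 10 in injected 1 had Tpsb2 UMIs. IgE signalling genes were then higher in 8 of 13 (median 0.24), and Fcer1a itself had a log2 fold change of -0.51. Of 23 immediate early and heat shock genes, 19 were higher in all mast cells (median 0.33) but 4 of 18 in those without Tpsab1 (median -0.28). Nr4a3, an orphan nuclear receptor induced by activation, had 215 and 273 CPM, against 106 and 104 CPM in all mast cells. Jun, a subunit of the AP-1 factor, had 6357 and 5764 CPM, against 3091 and 5898 CPM.

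Amine and granule storage genes were higher in 6 of 8 (median 0.26). Hdc, which makes histamine, had 712 and 646 CPM, against 376 and 287 CPM, a log2 fold change of 0.96 (SE 0.52, edgeR adjusted p = 0.704). Srgn had 5423 and 2734 CPM, against 1252 and 1451 CPM, a log2 fold change of 1.55 (SE 0.56, edgeR adjusted p = 0.697). Slc18a2 overlapped, with 309 and 154 CPM, against 183 and 209 CPM. Cd63, a granule membrane tetraspanin, had 3148 and 3101 CPM, against 4044 and 2840 CPM, and the heparan polymerase Ext1 1320 and 670 CPM, against 597 and 921 CPM.

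Among receptors, Kit had 900.2 and 658 CPM, against 520 and 529.9 CPM, a log2 fold change of 0.51 (SE 0.51, edgeR adjusted p = 0.879). Il1rl1, the IL-33 receptor, had 260 and 94.9 CPM, against 28.9 and 78.2 CPM, while Il2rg, the common γ chain, had 149 and 107 CPM, against 347 and 165 CPM. In the list of Kit, cytokine receptors and survival, 3 of 5 tested genes were higher (median 0.51). Of 6 other surface receptors 2 were higher (median -0.13). These were Cd200r1, an inhibitory receptor, with 260 and 190 CPM, against 77.0 and 69.5 CPM, and Mrgprb3, of the Mrgpr family, with 458 and 261 CPM, against 144 and 148 CPM. Mrgprx2 overlapped at 298 and 166 CPM, against 279 and 235 CPM.

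The medians of secreted and lipid mediators were higher when uninjected 1 was left out, where more genes were tested. What the added genes and the missing library each contributed was not tested. Cytokines, chemokines and growth factors were higher in 5 of 8 (median 0.42), and in 9 of 12 without uninjected 1 (median 1.14). Ccl7 had 2971 and 2182 CPM, against 4911 and 808 CPM, and Csf1, the macrophage growth factor, 387 and 427 CPM, against 212 and 174 CPM. Osm, an IL-6 family cytokine, had 497 and 285 CPM, against 279 and 182 CPM. Of 4 lipid mediator genes 3 were higher (median 0.08), and 4 of 6 without uninjected 1 (median 0.38). Ptgs2, the inducible cyclooxygenase, had 2469 and 1376 CPM, against 963 and 999 CPM, and Hpgds, which makes prostaglandin D2, 624 and 712 CPM, against 607 and 599 CPM. Transcription factors were higher in 6 of 8 (median 0.38). Gata2 had 630 and 332 CPM, against 279 and 426 CPM, and Mitf 414 and 231 CPM, against 212 and 287 CPM, both overlapping.

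Every tested gene of 2 lists, hypoxia with glycolysis and antigen presentation, had the higher value in injected mast cells. All 9 tested genes of hypoxia and glycolysis were higher (median 0.80), and all 11 were when uninjected 1 was left out (median 0.78). In cells with 0 Tpsab1 UMIs 5 of 7 were higher (median 0.52). Ldha, lactate dehydrogenase A, had 2678 and 1435 CPM, against 905 and 1416 CPM, and Pgk1, phosphoglycerate kinase, 740 and 623 CPM, against 318 and 460 CPM. All 7 genes of antigen presentation were higher (median 1.34), with 0 called. Without uninjected 1 the median was 0.52 over 9 genes, all higher. MHC class I genes are alike in sequence, so the split of their reads is uncertain. RT1-A2, an MHC class I gene, had 136 and 66 UMIs in injected mast cells, against 0 and 14, and other barcodes had 720 and 828 CPM, against 16.1 and 217 CPM. The ribosomal proteins leaned the other way, with 63 of 69 lower (median -0.94), and -0.24 without uninjected 1. The share of ribosomal UMIs in other barcodes, given above, moved likewise. Exocytosis genes were higher in 2 of 3, and the single tested interferon-induced gene, Ifi27, was lower. Tetraspanins, integrins and enzymes of migrasomes were higher in 2 of 5 (median -0.06), but in 6 of 8 without uninjected 1 (median 0.66). Cell division genes were higher in 1 of 5 (median -0.21), but in 4 of 6 without uninjected 1 (median 0.45).

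Whether injection went with a different change in mast cells than in all other barcodes of the same libraries was tested as an interaction with the library as block. Of 2251 genes, 0 passed edgeR's test (0.0%), 113 had an unadjusted p under 0.05 (5.02%), and DESeq2 called 3 (0.133%), Mctp1, Rcan1 and Srgn, named here for that count. Rcan1 differed by 2.81 log2 units more in mast cells (SE 0.55, edgeR adjusted p = 0.262), with 63.1 and 106 CPM in other barcodes of the injected libraries, against 66.1 and 64.7 CPM. Its adjusted p ranged from 5.54e-05 to 0.878 over 12 alternatives, 4 of them under 0.05. Mctp1, a calcium-binding membrane protein, had 431 and 320 CPM in injected mast cells, against 67.4 and 226 CPM, and 11.5 and 4.16 CPM in other barcodes, against 10.1 and 24.2 CPM. Its interaction was 2.79 log2 units (edgeR adjusted p = 0.153, 0.000112 to 1.0 over 12 alternatives). For Srgn it was 1.54 (edgeR adjusted p = 0.677), and -0.54 when macrophage barcodes stood in for all others. These barcodes, picked by C1q genes, numbered 51 and 30 in the injected libraries, against 8 and 25.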

How the data were processed

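UMI counts per gene and barcode were deposited by the authors as whole numbers for all barcodes of 4 libraries. The headers deposited with the counts name Cell Ranger 7.2.0, whereas version 5.0.1 stands in the submitters' processing notes. Which genome build the reads were aligned to is not given in the sources used here. The libraries held 75823418 to 105605297 UMIs over 23999 genes. Members were found by the rule stated in the report, and the members and gene lists were chosen with earlier results of these data known. Doublets were scored with Scrublet in scanpy 1.11.5 and removed only in an alternative. High scores marked 3 and 2 mast cells of the injected libraries, against 1 and 0. UMIs were summed per library over mast cells (349719 in the injected libraries, 218983 in the uninjected ones) and over all other barcodes. They were tested in R 4.3.3 with edgeR 4.0.16 (quasi-likelihood, TMM, filterByExpr), with DESeq2 1.42.0 as an alternative. Printed CPM are plain shares of UMIs, with no TMM scaling. The test was tested on simulated data. Named genes are the 10 of smallest p in each direction, as none was called (1 of them is not reported here), the mast cell markers, up to 4 members per list of highest mean CPM and the 15 genes highest over other barcodes. Resp18, Cd200r1, Csf1, Nr4a3 and the genes of the tryptase states were named after their values were seen. List genes without a row of their symbol were not analysed here, Col1a2 of the collagen limit among them. Free RNA was bounded from barcodes with 1 to 100 UMIs. Same-numbered libraries are not said to share an animal or day, so the replicate number was no block in the main test.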

Additional observations from a re-analysis of the deposited data

How the results depend on the processing

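Counts of called genes moved from 0 only in some alternatives. Without 1 library in turn, 0 to 2 genes were called higher and 0 to 2 lower in mast cells, both maxima without injected 1. DESeq2 called 1 higher. The replicate block called 0 higher and 2 lower, S100a9 and AABR07034362.2. The replicate number is no stated pairing. Deviations of same-numbered libraries from their group means correlated at -0.179 over genes, necessarily the same value for both numbers. The log CPM themselves correlated at 0.654 between injected 1 and uninjected 1, and at 0.854 between injected 2 and uninjected 2. Crossed pairs gave 0.813 for injected 1 with uninjected 2, and 0.759 for injected 2 with uninjected 1. Within groups the values were 0.834 for the injected pair and 0.745 for the uninjected pair. With the pairing crossed, chosen after seeing the data, 9 were called higher and 20 lower. Against other cells, 0 to 7 higher and 0 to 11 lower genes were called without 1 library, the maxima without uninjected 1. DESeq2 called 3 higher and the fit with no filter on low counts 2. The mast cell share difference ranged from 0.0447 to 0.3502 percentage points without 1 library and from 0.1412 to 0.3833 under other settings, the lowest without injected 2. It was 0.1975 under the replicate block, -0.0344 and 0.4293 within numbers. The tryptase-positive difference was 11.9 to 53.1 points without 1 library, the extremes without injected 1 and without injected 2, and 28.3 to 45.2 at other thresholds or depths. These signs turned: Cpa3 (main 0.07) was -0.066 with at least 5 UMIs and 3 detected rule genes, and -0.21 to 0.30 without 1 library. In cells with 0 Tpsab1 UMIs Cpa3 was -0.10, Fcer1a -0.51, Csf1 -0.06 and Hpgds -0.034. Without 1 library, Gata2 was -0.16 to 0.84, Slc18a2 -0.43 to 0.64, Hpgds -0.13 to 0.22, Mitf -0.19 to 0.72, Ccl2 -0.16 to 1.10 and Mcpt4 -4.06 to 1.97. Mcpt4 (main -0.08) was 0.034 with no filter, 0.05 at 1000 UMIs and 0.84 in cells with 0 Tpsab1 UMIs. Srgn against macrophages was -0.54. The cause of these changes was not tested. With 2 libraries a group and 33 to 51 mast cells each, changes of 2 log2 units or less were often beyond reach.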

Other observations

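Mcpt4, a chymase, was uneven and low. It had 1 and 34 UMIs in mast cells of the injected libraries, against 18 and 3, and 17 of the 34 in injected 2 lay in 1 cell. Il4, a type 2 cytokine, had 16 and 4 UMIs, against 2 and 1, and 12 of the 16 in injected 1 lay in 1 cell. At least 2 of 4 genes of dividing cells (Mki67, Top2a, Cdk1 and Birc5) were detected in 0 and 8 mast cells of the injected libraries, against 2 and 1. Crip1, a small zinc-binding protein, had 525 and 783 CPM in injected mast cells, against 11217 CPM in uninjected 1 and 817 CPM in uninjected 2, and was detected in 27 and 35 mast cells, against 49 and 29. Other barcodes had 131 and 85.7 CPM, against 550 and 126 CPM. These genes were chosen after their values were seen, other than Mcpt4.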
